A study of Homo sapiens with 2 samples.

Results

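Polyamine synthesis and turnover genes were examined by RNA sequencing of RKO, an established cell line from a human colorectal cancer, on day 2 after siRNA transfection. The set was listed by symbol, and its genes were chosen by their role in the pathway with their FPKM ratios between the libraries below already known. It holds 10 genes of the 40205 in the deposited table: ODC1, AMD1, SRM and SMS for synthesis, OAZ1, OAZ2 and AZIN1 for control of ornithine decarboxylase, and SAT1, SMOX and PAOX for turnover. All 10 were found in the table, and 9 of them had a mean of at least 1 FPKM over the libraries. FPKM is a number of fragments scaled to gene length and to library size. Levels of different genes are set side by side on that scale, which rests on gene lengths whose annotation is not given. The series has 2 libraries, 1 from cells given an siRNA against hnRNPK (hnRNPK siRNA) and 1 from cells given a control siRNA (control siRNA). The genotype label of the hnRNPK siRNA library is worded as a deletion, while its title and the protocol describe siRNA, and it is treated as a knockdown here. hnRNPK is an RNA-binding and single-stranded DNA-binding protein with a preference for C-rich sequence. Whether the lysates came from separate cultures is not stated, and with 1 library per group no difference below has a replicate check and no p-value was computed.

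Polyamines are small, positively charged molecules that bind nucleic acids and are needed for growth. Ornithine decarboxylase makes putrescine, and spermidine synthase and spermine synthase add aminopropyl groups that come from decarboxylated S-adenosylmethionine. When polyamines are plentiful they favour a frameshift on antizyme mRNA, and the antizyme protein made binds ornithine decarboxylase and takes it to the proteasome. Antizyme inhibitor, an inactive relative of ornithine decarboxylase, binds antizyme instead. Breakdown runs through an acetyltransferase and through oxidases that act on spermine or on acetylated polyamines. Many of these steps are controlled at translation or protein stability, which RNA levels do not show. ODC1 is a textbook target of MYC, which binds the E-box CACGTG, and it is commonly raised in colorectal tumours.

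The regulatory sequences of the genes the results turn on are shown first. RefSeq promoter sequences (250 bases before to 50 after a start, build GRCh38.p14) were matched for 7 of the 10 genes, with 10 starts between them, since ODC1 and AMD1 have several. The expression table carries no coordinates, and the submitters' processing notes name hg19 as its build, so these positions are not those of the table. SMOX, PAOX and AZIN1 are named only. Capitals mark any match to the 5 motifs searched on both strands. These were the E-box CACGTG, the box named CCAAT, the start-site element TATAA, a part of the cyclic AMP response element written TGACGT, and the C-rich run CCCTCCC. In the window of the second ODC1 start only the E-boxes are in capitals. Each sequence reads 5′ to 3′ on the gene's strand.
ODC1, first start, chr2:10448328-10448517, minus strand, bases -190 to -1: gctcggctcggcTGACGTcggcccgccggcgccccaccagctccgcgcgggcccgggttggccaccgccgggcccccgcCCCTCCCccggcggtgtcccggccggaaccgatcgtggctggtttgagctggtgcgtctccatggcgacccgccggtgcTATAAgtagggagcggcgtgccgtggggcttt
ODC1, second start, chr2:10448001-10448120, minus strand, bases -108 to 12: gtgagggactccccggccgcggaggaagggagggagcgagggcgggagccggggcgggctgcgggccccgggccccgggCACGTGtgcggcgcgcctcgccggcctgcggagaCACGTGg
SRM, chr1:11060019-11060228, minus strand, bases -210 to -1: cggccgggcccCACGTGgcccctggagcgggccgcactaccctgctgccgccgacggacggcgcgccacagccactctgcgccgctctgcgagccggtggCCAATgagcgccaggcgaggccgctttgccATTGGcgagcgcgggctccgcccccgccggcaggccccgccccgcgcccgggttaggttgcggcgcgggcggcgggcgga
SAT1, chrX:23783023-23783172, plus strand, bases -150 to -1: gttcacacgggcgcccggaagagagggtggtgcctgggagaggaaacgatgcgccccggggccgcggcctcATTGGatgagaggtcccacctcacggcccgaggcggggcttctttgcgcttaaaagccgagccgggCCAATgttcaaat

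The letters CACGTG were found in 2 of the 10 promoters, 1 each of ODC1 and SRM, and in 7.26% of all 35116 promoters of the same length. At ODC1 they occur as a pair beginning at -29 and 6 from the second start, a stretch that begins with the first base of intron 1 of the GENCODE transcript starting farther upstream. The first ODC1 start holds TATAA at -32 and TGACGT at -178, letters found in 20.4% and 7.98% of all promoters on either strand. SAT1 holds CCAAT at -13 and its complement at -79, and CCAAT or its complement stands in 5 of the 10 promoters and in 34.6% of all promoters. CCCTCCC or its complement stands in 4 of the 10, those of ODC1, OAZ1 and SMS, and in 26.6% of all promoters. No such letters stand in the SAT1 window. These matches describe letters and not binding.

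The frameshift by which polyamines act on antizyme is written in the OAZ1 coding sequence, where the ribosome skips a base at a stop codon. That codon and the codon before it are in capitals in this 30-base window from the GENCODE transcripts (GRCh38).
OAZ1, frameshift site, chr19:2271429-2271458, plus strand: ctcggtggtgcTCCTGAtgcccctcaccca

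The siRNA target was lower in the library labelled with it. HNRNPK was at 61.5 FPKM in hnRNPK siRNA and 338.0 FPKM in control siRNA, which leaves 18.2% of the control level. Whole reads could be worked out from the FPKM values, and the library totals were 28550823 reads for hnRNPK siRNA and 25729856 reads for control siRNA. Intervals given with ratios are exact Clopper-Pearson 95% intervals from these reads, and intervals given with levels are exact Poisson 95% intervals. Both cover counting error only and not the variation between cultures or libraries. Read numbers are the smallest that fit, and the true ones may be a common multiple. The epithelial markers EPCAM, KRT8 and KRT18 were present, CDH1 and KRT19 were listed at 0, and of 9 intestinal markers only CDX2 had a mean of at least 1 FPKM, with 7 at 0 in both libraries. All 5 blood markers and 5 of 6 stromal and endothelial markers were at 0 in both libraries.

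Since the ratios were known when the genes were chosen, what follows describes them and tests nothing. Their ratios spread to both sides. SAT1, an acetyltransferase that starts polyamine breakdown and export, and ODC1, the first enzyme of synthesis, were lower in hnRNPK siRNA, while SMOX, the oxidase that turns spermine back into spermidine, was higher. The antizyme genes OAZ1 and OAZ2 and the inhibitor gene AZIN1 were each slightly higher. In bulk RNA a change in every cell and a change in a share of the cells cannot be told apart. Of the other synthesis genes, AMD1 and SMS lay close to the control level and SRM was slightly lower. Counted on FPKM + 1, 1 of the 9 genes whose mean reached 1 FPKM was at least 2-fold lower (SAT1), against 3.55% of all 11454 such genes, and 1 was at least 2-fold higher (SMOX), against 0.777%. At 1.5-fold, 2 of the 9 were lower (SAT1 and ODC1), against 14.7% of all genes, and 1 was higher (SMOX), against 3.67%. The median log2 ratio of the 9 was 0.02, and that of all genes was -0.15. Relative to that last value, 6 of the 9 lay higher and 3 lower.

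**Figure D1:**
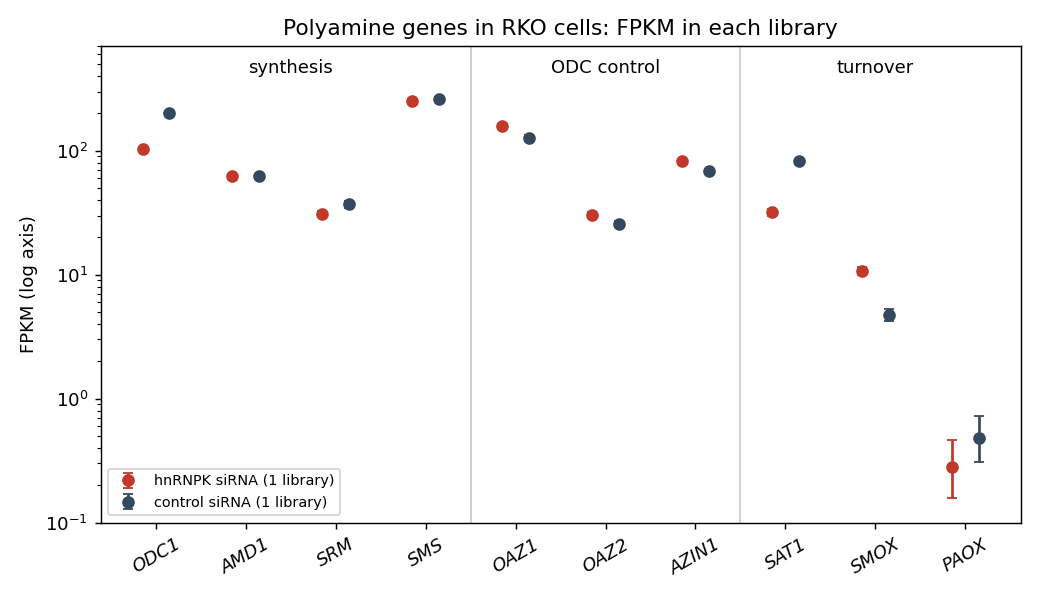
FPKM of each polyamine gene on a log axis in the hnRNPK siRNA library (red) and the control siRNA library (dark), 1 library each. Bars are exact 95% Poisson intervals for counting error and are often smaller than the points. ODC1 and SAT1 are visibly lower and SMOX higher in the hnRNPK siRNA library, and PAOX lies below 1 FPKM in both.

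Ornithine decarboxylase, ODC1, was at 103.6 FPKM in hnRNPK siRNA and 200.7 FPKM in control siRNA, from 3238 and 5654 reads. The ratio was 0.516 (0.494 to 0.539), and 4.16% of all genes kept had a lower log2 ratio. The gene falls just short of 2-fold as deposited, with a log2 ratio of -0.95 on FPKM + 1. It passes 2-fold when library totals are equalised without small RNAs, where its log2 ratio was -1.06. It lies farther from 2-fold after centring on the median of all genes, at -0.80, and with TMM factors, at -0.77. In the order of levels among all genes, ODC1 stood above 94.4% of them in hnRNPK siRNA and above 97.4% in control siRNA, so it remained an abundant transcript. Among the other genes within 2-fold of its mean level, those nearest in log2 ratio were PSIP1, ARPC1A and PTGR1, at ratios of 0.521, 0.523 and 0.548. With 2 libraries this likeness is that of a single ratio.

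The other synthesis genes moved less. S-adenosylmethionine decarboxylase, AMD1, supplies the aminopropyl donor and was at 63.0 FPKM in hnRNPK siRNA and 62.0 FPKM in control siRNA, a ratio of 1.02 (0.980 to 1.05) whose interval includes 1. Spermidine synthase, SRM, was at 31.0 FPKM in hnRNPK siRNA and 36.8 FPKM in control siRNA, a ratio of 0.841 (0.774 to 0.913). Spermine synthase, SMS, was the most abundant of the 10 in both libraries, at 250.5 FPKM in hnRNPK siRNA and 259.8 FPKM in control siRNA, a ratio of 0.964 (0.941 to 0.989). The side of 1 on which AMD1 and SMS lie depends on scaling. AMD1 had log2 ratios between -0.09 and 0.20 and SMS between -0.16 and 0.12 over the settings tried. Summed over the 4 synthesis genes, FPKM was 448 in hnRNPK siRNA and 559 in control siRNA, and ODC1 made up 23.1% of that sum in hnRNPK siRNA and 35.9% in control siRNA. For SRM, 39.9% of all genes kept had a lower log2 ratio.

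The genes that control ornithine decarboxylase protein lay together on the higher side. Antizyme 1, OAZ1, whose frameshift site is printed above, was at 158.5 FPKM in hnRNPK siRNA and 127 FPKM in control siRNA, a ratio of 1.25 (1.17 to 1.32). Its paralog OAZ2 was at 30.3 FPKM in hnRNPK siRNA and 25.7 FPKM in control siRNA, a ratio of 1.18 (1.09 to 1.27). The antizyme inhibitor AZIN1 was at 83.1 FPKM in hnRNPK siRNA and 69.1 FPKM in control siRNA, a ratio of 1.20 (1.17 to 1.24). None reached 1.5-fold on the FPKM + 1 scale. All 3 were on the higher side under every setting tried, with log2 ratios from 0.12 to 0.49. They lay above 83.0% to 88.1% of all genes in log2 ratio.

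Turnover genes diverged. SAT1 was at 31.8 FPKM in hnRNPK siRNA and 81.9 FPKM in control siRNA, from 1066 and 2475 reads. It was 2.58-fold lower (2.40 to 2.77), and 0.847% of all genes had a lower log2 ratio. Values are per gene symbol, so the SAT1 splice form with an added exon, known to be removed by mRNA surveillance, is not separated from the form that makes the enzyme. Spermine oxidase, SMOX, was at 10.6 FPKM in hnRNPK siRNA and 4.73 FPKM in control siRNA, from 706 and 283 reads. It was at a ratio of 2.25 (1.96 to 2.59), and 0.725% of all genes had a log2 ratio as high or higher. The peroxisomal oxidase PAOX, which acts on the acetylated products of SAT1, was at 0.283 FPKM in hnRNPK siRNA and 0.482 FPKM in control siRNA, from 15 and 23 reads, and its ratio of 0.588 (0.285 to 1.18) did not exclude 1. A difference in PAOX was not detectable at this depth.

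**Figure D2:**
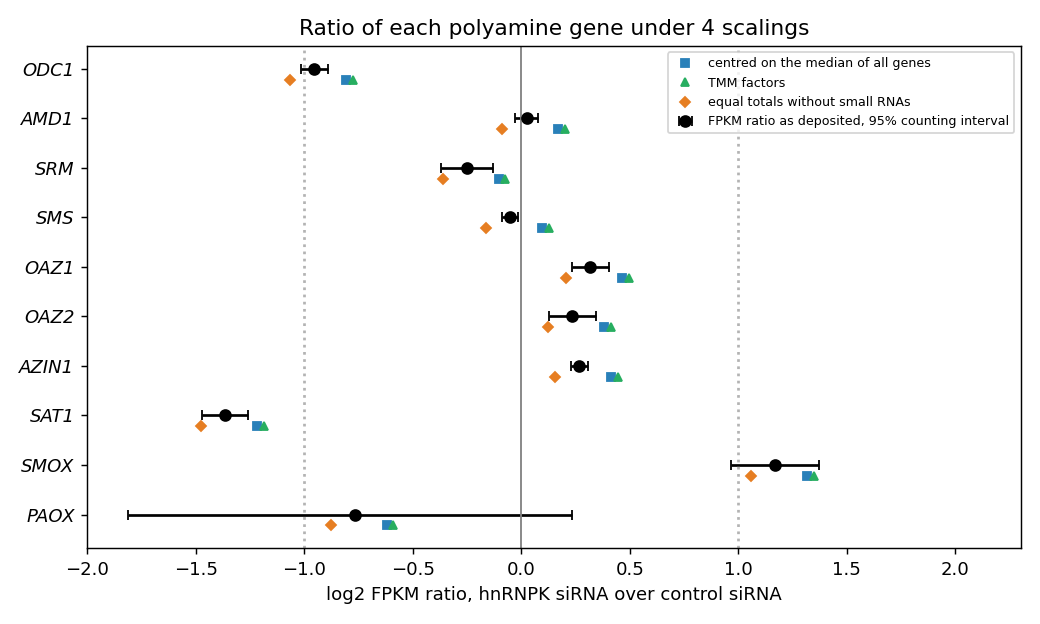
Log2 ratio of FPKM, hnRNPK siRNA over control siRNA, for each polyamine gene. Black points are the deposited scaling with 95% counting intervals, coloured symbols below them are the other scalings, and dotted lines mark 2-fold. SAT1 and ODC1 stay on the lower side and SMOX, OAZ1, OAZ2 and AZIN1 on the higher side under each scaling drawn, while AMD1 and SMS change side.

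Counting intervals are narrow for abundant genes, so excluding 1 is common here. The interval lay below 1 for 4 of the 9 genes (ODC1, SRM, SMS and SAT1) and above 1 for 4 (OAZ1, OAZ2, AZIN1 and SMOX). Over the 11428 genes kept that had recovered reads in both libraries, 48.4% had an interval below 1 and 20.8% above 1. Among all genes kept, SAT1 lay below the 2-fold line, SMOX just above it and ODC1 just inside it.

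**Figure D3:**
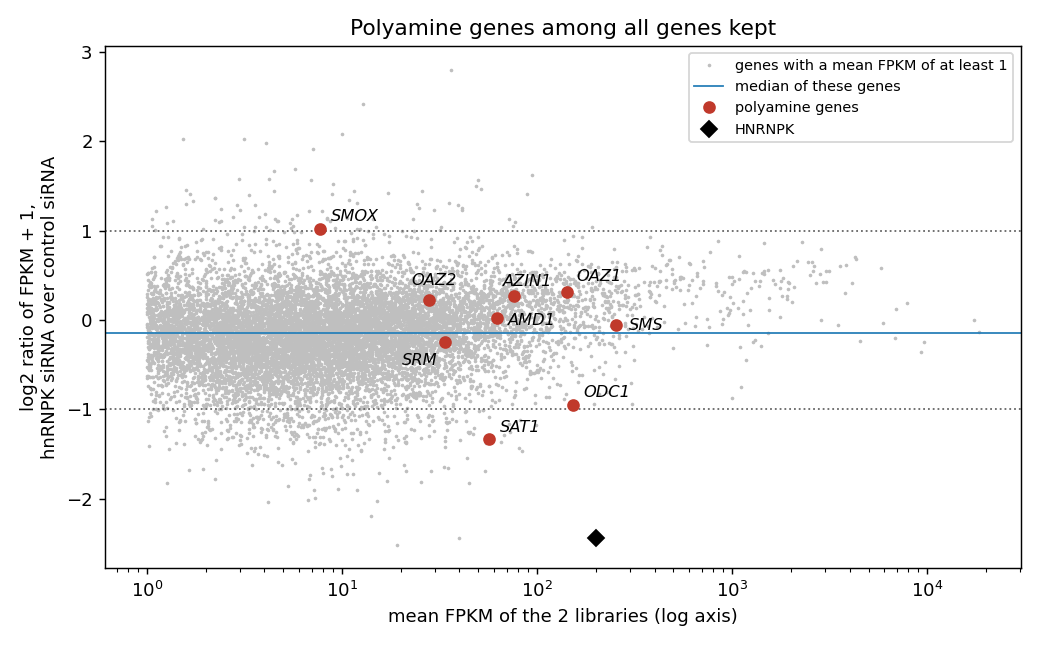
Log2 ratio of FPKM + 1, hnRNPK siRNA over control siRNA, against mean FPKM on a log axis for the 11454 genes kept, whose mean was 1 FPKM or more. The 9 polyamine genes in that range are red, HNRNPK is the black diamond, the blue line is the median of all genes at -0.15 and dotted lines mark 2-fold. SAT1 lies below and SMOX just above the 2-fold lines, and ODC1 lies just inside the lower one.

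Ratios between genes of the same library do not depend on how libraries are scaled. ODC1 was at 0.653 times the level of OAZ1 in hnRNPK siRNA (0.620 to 0.688) and 1.58 times in control siRNA (1.498 to 1.66). The ODC1 to OAZ1 ratio was thus 2.42-fold lower (2.24 to 2.60) in hnRNPK siRNA, a change that does not depend on gene length. By FPKM the order of enzyme and antizyme transcripts was turned round. That order does rest on the gene lengths behind FPKM, whose annotation is not given, and the intervals do not cover this. Against OAZ2, ODC1 was at 3.42 times its level in hnRNPK siRNA and 7.81 times in control siRNA. The balance of inhibitor to antizyme differed little, with AZIN1 at 0.525 times OAZ1 in hnRNPK siRNA and 0.543 times in control siRNA, a change of 0.965 (0.903 to 1.03) whose interval includes 1. OAZ1 was at 5.24 times OAZ2 in hnRNPK siRNA and 4.95 times in control siRNA, a change of 1.06 (0.963 to 1.17).

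Other enzymes of synthesis and turnover also differed in their proportions between the libraries. AMD1 was at 0.609 times ODC1 in hnRNPK siRNA and 0.309 times in control siRNA, a 1.97-fold higher proportion (1.86 to 2.09). SRM was at 0.299 times ODC1 in hnRNPK siRNA and 0.183 times in control siRNA, 1.63-fold higher (1.48 to 1.79). SMS was at 8.09 times SRM in hnRNPK siRNA and 7.06 times in control siRNA, a change of 1.15 (1.05 to 1.25). SAT1 and ODC1, which act on opposite sides of the pool, were both lower, and SAT1 was at 0.307 times ODC1 in hnRNPK siRNA and 0.408 times in control siRNA, 1.33-fold lower (1.22 to 1.45). The largest shift among these pairs was between the turnover enzymes that use spermine: SMOX was at 0.335 times SAT1 in hnRNPK siRNA and 0.0578 times in control siRNA, 5.79-fold higher (4.95 to 6.79).

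**Figure D4:**
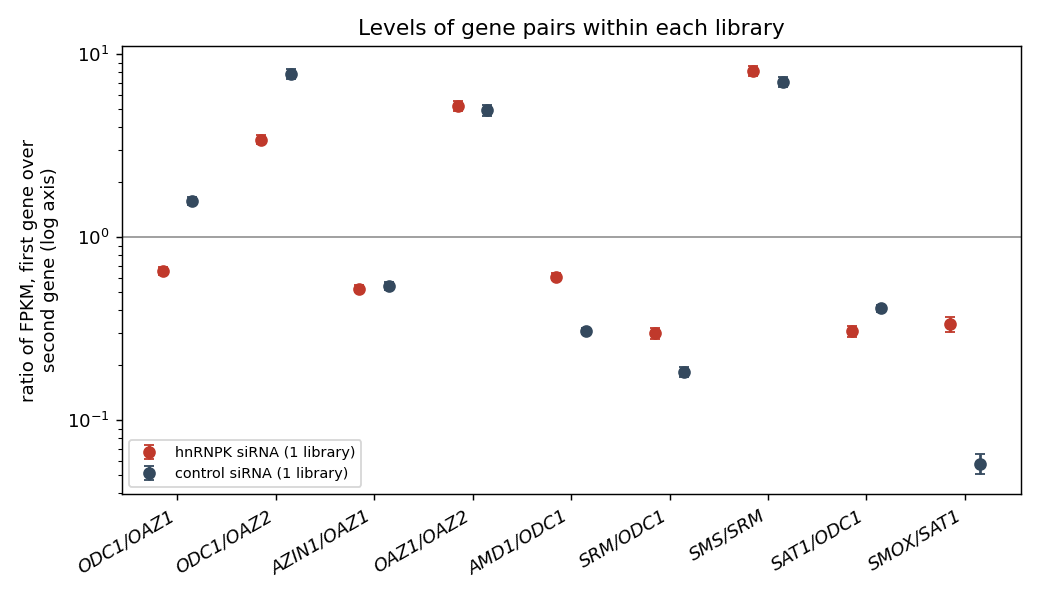
FPKM of the first gene over that of the second within the hnRNPK siRNA library (red) and the control siRNA library (dark), on a log axis with 95% counting intervals and a line at 1. ODC1/OAZ1 lies below 1 in hnRNPK siRNA and above 1 in control siRNA, AZIN1/OAZ1 and OAZ1/OAZ2 nearly coincide, and SMOX/SAT1 is farthest apart.

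In hnRNPK siRNA the levels within the set ran, from high to low, SMS, OAZ1, ODC1, AZIN1, AMD1, SAT1, SRM, OAZ2, SMOX, PAOX. There SAT1 at 31.8 FPKM (29.9 to 33.8), SRM at 31.0 FPKM (29.2 to 32.8) and OAZ2 at 30.3 FPKM (28.8 to 31.7) had overlapping intervals, so their order is not resolved. In control siRNA they ran SMS, ODC1, OAZ1, SAT1, AZIN1, AMD1, SRM, OAZ2, SMOX, PAOX, and no neighbours had overlapping intervals. Summed over SAT1, SMOX and PAOX, FPKM was 42.7 in hnRNPK siRNA and 87.2 in control siRNA. Most of that sum was SAT1, at 31.8 FPKM in hnRNPK siRNA and 81.9 FPKM in control siRNA, while SMOX went the other way. Over OAZ1 and OAZ2 the sum was 189 in hnRNPK siRNA and 153 in control siRNA.

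Reads could be shared with related sequences. The copies ODCP, AMD1P1, AMDP1, SRMP1 and SRMP2 were all listed at 0 in both libraries. In the GRCh38.p14 annotation ODC1 overlaps the small nucleolar RNA gene SNORA80B, whose level lay far below that of ODC1 in both libraries. SAT1 overlaps the protein-coding LOC127933115 and SMOX the long non-coding LOC124904861, and no level was found under either name. AMD1 overlaps CDK19 among other genes. CDK19 was at 1.15 FPKM in hnRNPK siRNA and 2.98 FPKM in control siRNA, far below AMD1. The sources used here do not say whether counting used strand.

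Genes connected with the pathway were taken from 6 lists of 46 genes, all in the table and 32 of them with a mean of at least 1 FPKM. Counted on FPKM + 1, 0 of the 32 were 2-fold lower and 0 were 2-fold higher, against 3.55% and 0.777% of all genes. At 1.5-fold on that scale, 0 were lower, against 14.7% of all genes, and 1 was higher, against 3.67%. With equal totals without small RNAs, 3 of the 32 were 1.5-fold lower, AHCYL1, AHCYL2 and SLC7A1, against 2219 of all 11454 genes. The median log2 ratio of the 32 was -0.04, with 21 higher and 11 lower than the all-gene median. The direction of 9 of the 32 depends on scaling, while 12 were higher and 11 lower under each scaling tried. The matching shares over all genes were not computed, so these counts only describe the 32.

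The gene past 1.5-fold on FPKM + 1 was PMF1, a polyamine-modulated factor known to act with the product of NFE2L2 on SAT1 transcription. It was at 8.15 FPKM in hnRNPK siRNA and 4.55 FPKM in control siRNA, a ratio of 1.79 (1.45 to 2.22), so it lay opposite to SAT1. PMF1 shares sequence with the read-through gene PMF1-BGLAP, at 3.32 FPKM in hnRNPK siRNA and 2.29 FPKM in control siRNA, and is uncertain for that reason. NFE2L2 itself was at 23.7 FPKM in hnRNPK siRNA and 20.1 FPKM in control siRNA. MYC, the most abundant regulator, was at 127 FPKM in hnRNPK siRNA and 133 FPKM in control siRNA, a ratio of 0.954 (0.925 to 0.983) that turns to the higher side after centring or with TMM factors. MNT, a MAX partner that represses E-box genes, had the lowest ratio among the regulators, 0.734 (0.538 to 0.998), from 1.71 FPKM in hnRNPK siRNA and 2.34 FPKM in control siRNA.

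Upstream of ornithine decarboxylase, the 4 measured genes of the ornithine and arginine list, AGMAT, ALDH18A1, ARG2 and OAT, had ratios below 1, as did 64.8% of all genes kept. Relative to the all-gene median, 3 of the 4 lay lower and 1, ARG2, lay higher. ALDH18A1, which starts ornithine and proline synthesis from glutamate and was the most abundant, was at 42.3 FPKM in hnRNPK siRNA and 55.9 FPKM in control siRNA, a ratio of 0.756 (0.726 to 0.788). OAT, which interconverts ornithine and glutamate semialdehyde, had the lowest ratio, 0.711 (0.665 to 0.760), and the mitochondrial arginase ARG2 the highest, 0.926 (0.858 to 0.999). ARG2 lay on the higher side after centring or with TMM factors, and ARG1 was listed at 0.

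The methionine cycle supplies the aminopropyl donor and salvages what is left of it. MTAP, which recycles methylthioadenosine released by SRM and SMS, was the most abundant of the 10 measured genes of this list and the highest in ratio, at 136 FPKM in hnRNPK siRNA and 103 FPKM in control siRNA (1.32, 1.29 to 1.35). AHCYL2, a relative of S-adenosylhomocysteine hydrolase, was the lowest at 1.26 FPKM in hnRNPK siRNA and 2.29 FPKM in control siRNA. By FPKM alone its ratio was 0.552 (0.456 to 0.665), past 1.5-fold. On FPKM + 1 its log2 ratio was -0.54, short of 1.5-fold. The list median was 0.09, with 7 genes higher and 3 lower than the all-gene median.

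Spermidine is also spent on hypusine, a modified lysine on the translation factor EIF5A. EIF5A was at 278 FPKM in hnRNPK siRNA and 221 FPKM in control siRNA, a ratio of 1.26 (1.23 to 1.30), and its paralog EIF5A2 was at 2.90 FPKM in hnRNPK siRNA and 4.04 FPKM in control siRNA, a ratio of 0.718 (0.634 to 0.813). DHPS and DOHH, the enzymes that make hypusine, had ratios of 0.774 (0.687 to 0.872) and 1.02 (0.831 to 1.25). EIF5A and EIF5AL1 are near-identical in sequence, so reads could be split between them.

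Among paralogs of the polyamine genes only SAT2, which is related to SAT1 in sequence, had a mean of at least 1 FPKM, at 43.8 FPKM in hnRNPK siRNA and 37.9 FPKM in control siRNA. By FPKM, SAT2 was thus above SAT1 in hnRNPK siRNA and below it in control siRNA. The testis antizyme OAZ3 and the second antizyme inhibitor AZIN2 were each below 1 FPKM in both libraries. Of 14 transport genes 7 were measured. SLC3A2, a subunit of amino acid exchangers that is also linked to polyamine export, was the most abundant at 37.2 FPKM in hnRNPK siRNA and 42.8 FPKM in control siRNA. The vesicular polyamine transporter SLC18B1 had the highest ratio, 1.33 (1.19 to 1.49), and the cationic amino acid transporter SLC7A1, which brings in arginine and ornithine, the lowest, 0.683 (0.647 to 0.721).

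**Figure D5:**
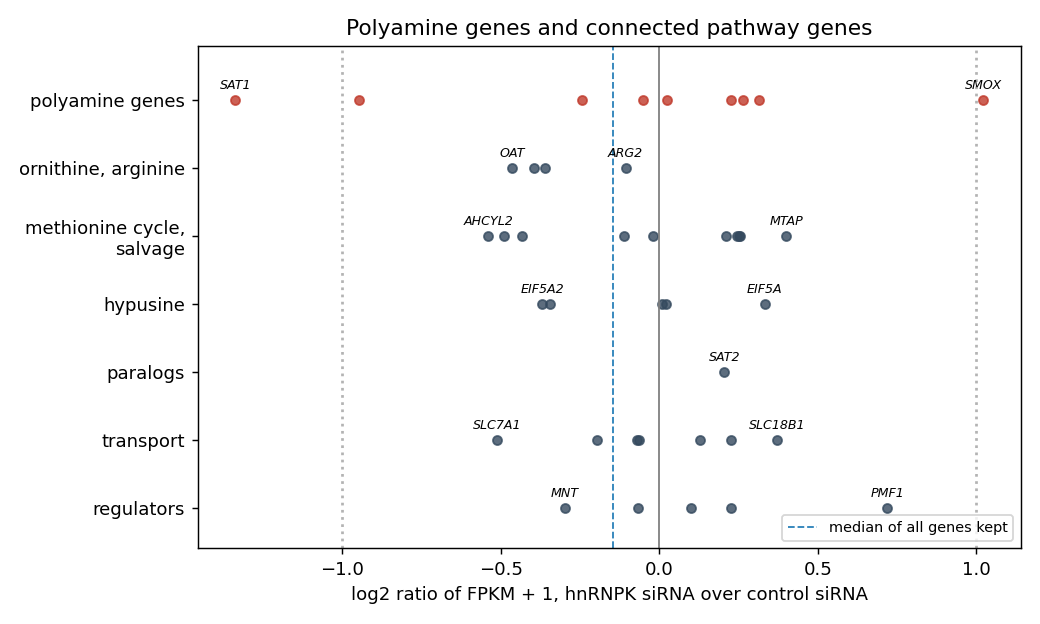
Log2 ratio of FPKM + 1, hnRNPK siRNA over control siRNA, of the 9 polyamine genes (red) and the 32 connected genes (dark) whose mean reached 1 FPKM, by list, with the lowest and highest gene of each named. The dashed line is the median of all genes, dotted lines mark 2-fold, and only SAT1 and SMOX lie beyond them.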

How the data were processed

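RNA from 2 libraries of transfected RKO cells was sequenced, per the labels. The authors deposited 1 table of FPKM values, 1 column per library. Bowtie 0.12.2 and hg19 are named in the submitters' processing notes; the sources used here do not give annotation, counting method or strand. The control column was matched by SiNC in its name, the hnRNPK column less directly by Si with K.

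Whole reads together with a whole gene length were recovered for 99.9% of 19069 genes above 0 (relative tolerance 5e-14 for reads, 1e-05 bases for length). Log2 ratios were taken after adding 1 FPKM, which understates the change of low genes; printed ratios of single genes use FPKM alone. Genes with a mean of at least 1 FPKM were kept. No count model and no test between conditions was used. Named genes are all members, HNRNPK, and from each connected list the most abundant, the highest and lowest in ratio and any past 1.5-fold. LOC127933115 and LOC124904861 are named as overlapping genes without values. AGMAT, AHCYL1, NFE2L2, DHPS, DOHH, EIF5AL1, ARG1, OAZ3, AZIN2, CDK19, SNORA80B and PMF1-BGLAP were added after their values were seen. Gene pairs were also chosen then. AZIN2 is listed under its older symbol. Members and lists were chosen with earlier results of these data known. Alternatives were pseudocounts of 0.1 and 5 FPKM, centring, TMM factors, equal totals without small RNAs, no filter and a mean of at least 5 FPKM. Recovery of reads and the intervals were tested on simulated data. Python 3.11.15, pandas 2.3.3, scipy 1.17.1 and matplotlib 3.10.9 were used.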

Additional observations from a re-analysis of the deposited data

How the results depend on the processing

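SAT1, ODC1, SRM, OAZ1, OAZ2, AZIN1 and SMOX kept their side of 1 under the 7 alternatives, and PAOX under the 6 that could give it a value. With equal totals without small RNAs, 2 polyamine genes were 2-fold lower (SAT1 and ODC1) and 0 were 2-fold higher, counted on FPKM + 1. SMOX then missed the line on that scale, which understates low genes, with a log2 ratio of 0.92. With a pseudocount of 5 FPKM 0 were 2-fold higher. Over all genes, 407 were 2-fold lower and 89 higher. A pseudocount of 0.1 FPKM made this 754 lower and 162 higher, one of 5 FPKM 85 lower and 24 higher, centring 241 lower and 142 higher, TMM 260 lower and 150 higher, equal totals 540 lower and 68 higher, and a minimum mean of 5 FPKM 258 lower and 50 higher. At 1.5-fold, 1682 were lower and 420 higher; a pseudocount of 5 FPKM made this 608 lower and 188 higher, centring 1027 lower and 827 higher, TMM 1057 lower and 885 higher, equal totals 2219 lower and 281 higher, and the minimum mean of 5 FPKM 987 lower. Higher genes made up 17.9% of the 2-fold genes as deposited, 11.2% once totals were equalised, 36.6% under TMM and 37.1% after centring. No paired analysis was possible because each group has 1 library. Among the polyamine genes, counting error at the deposited scaling leaves the side of PAOX and AMD1 unresolved. The side of SMS and AMD1 also depends on scaling, and intervals of single genes were not computed under the other scalings. Variation between cultures is unknown for all.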
